A study of Mus musculus with 2 samples.

Results

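Of 45101 probe sets on an Affymetrix mouse array, 31 were annotated to 10 genes of cellular iron uptake, storage and export, where 18193 genes in all had a probe set of their own. They were taken by gene name alone, whatever their signals, and each probe set is described. The genes are Trf, Tfrc and Slc11a2 of uptake, Fth1 and Ftl1 of storage, Slc40a1 and Cp of export, the iron sensors Aco1 and Ireb2, and Hmox1 of haem breakdown. Mice were injected with antagomir-122, a cholesterol-linked oligonucleotide complementary to the hepatocyte microRNA miR-122, or with mm-antagomir-122, which the labels call its scrambled control. Each dose was 80 mg/kg, given daily for 3 days in both groups, and livers were taken 24 h after the last injection. Strain, sex and age are not stated in the labels used here. RNA of 3 livers was pooled before labelling and each pool was hybridised to 1 array. There is therefore no replicate error, no test between the groups was possible and no p-value is given.

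Cells take up iron bound to transferrin, the plasma carrier made by hepatocytes (Trf), through the transferrin receptor (Tfrc), and the transporter DMT1 (Slc11a2) moves it out of the endosome. Iron that is not used is stored in ferritin, a shell of heavy (Fth1) and light (Ftl1) subunits, or leaves the cell through ferroportin (Slc40a1), helped by the copper oxidase ceruloplasmin (Cp). The iron regulatory proteins, encoded by Aco1 and Ireb2, bind hairpins in several of these messages when iron is scarce. They block the translation of ferritin and ferroportin messages and slow the decay of the Tfrc message. Haem oxygenase-1 (Hmox1) releases iron from haem, and in liver it is known as a gene of Kupffer cells that clear red cells. The arrays read messenger RNA, so regulation of translation is outside what they measure.

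The arrays read the products of transcription, and the bases just before the annotated start are shown for the 4 of these genes whose RefSeq window (GRCm38.p6) lies directly before the outermost start. RefSeq windows were matched for 6 of the 10 genes, with 9 windows in all. Each line gives the 100 bases before the start, 5′ to 3′ on the gene's strand, with capitals marking GC boxes and CCAAT boxes.
Tfrc, chr16:32608796-32608895, plus strand: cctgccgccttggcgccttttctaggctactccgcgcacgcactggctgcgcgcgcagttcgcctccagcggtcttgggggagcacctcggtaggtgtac
Fth1, chr19:9980500-9980599, plus strand: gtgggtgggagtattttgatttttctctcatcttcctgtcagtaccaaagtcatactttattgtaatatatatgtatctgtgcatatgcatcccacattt
Ftl1, chr7:45459887-45459986, minus strand: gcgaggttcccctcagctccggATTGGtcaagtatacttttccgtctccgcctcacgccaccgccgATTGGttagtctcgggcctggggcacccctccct
Aco1, chr4:40143165-40143264, plus strand: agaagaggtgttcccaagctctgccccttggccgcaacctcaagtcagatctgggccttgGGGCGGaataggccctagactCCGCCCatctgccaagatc
The GC box was searched as GGGCGG, and the CCAAT box as the letters of its name. The TATA box was searched as TATAAA, and every motif on both strands. Ftl1 held 2 CCAAT boxes, Aco1 held 2 GC boxes, and the Tfrc and Fth1 windows shown held none of these letters. Among all 32851 such windows, 24.7% held a GC box, 18.9% a CCAAT box and 5.56% a TATA box. Other annotated starts lie further along some genes. There the Fth1 window held 2 GC boxes and 1 CCAAT box, the Tfrc window 1 GC box, and a Cp window the TATA letters, once on each strand and overlapping. These matches describe letters only.

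The values are linear MAS5 signal intensities in arbitrary units, scaled by the authors to the same trimmed mean on both arrays. Ratios are the antagomir-122 signal over the mm-antagomir-122 signal, on the log2 scale. A probe set counts as measured when its mean signal lay at or above a floor of 238, the 60th percentile of all non-control probe sets. Of the 31 probe sets, 24 carried 1 gene, 4 were shared with another gene and 3 were Affymetrix control probe sets for Tfrc. Of the 24, 20 lay at or above the floor and 4 lay under it. A gene is represented by its brightest measured probe set of 1 gene, which 8 of the 10 genes had, since Trf and Ftl1 had shared probe sets only.

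No iron gene reached a 1.5-fold difference on its brightest probe set. Of the 8 measured genes, 0 were higher in the antagomir-122 pool by 1.5-fold or more, against 5.12% of all 10003 measured genes. Likewise 0 were lower by 1.5-fold or more, against 2.62% of all measured genes. Their log2 ratios ran from -0.49 for Tfrc to 0.26 for Hmox1, with 4 above 0 and 4 below. The median was -0.04, against 0.00 over all measured genes, of which 5034 had ratios above 0 and 4965 below. Among single probe sets, 2 of 20 passed 1.5-fold on the higher side and 0 on the lower side, against 5.16% and 3.24% of all 16023 measured probe sets. Those 2 were dim probe sets of Slc11a2 and Cp, and no other measured probe set of either gene passed 1.5-fold. All probe sets of Slc11a2 were dim, with a mean signal of 386 on this one and 528 on the brightest. In the same pools 9 of 11 genes reported as miR-122 targets passed 1.5-fold on the higher side. Their median log2 ratio was 0.99, and that list was chosen in part on these arrays.

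**Figure D1:**
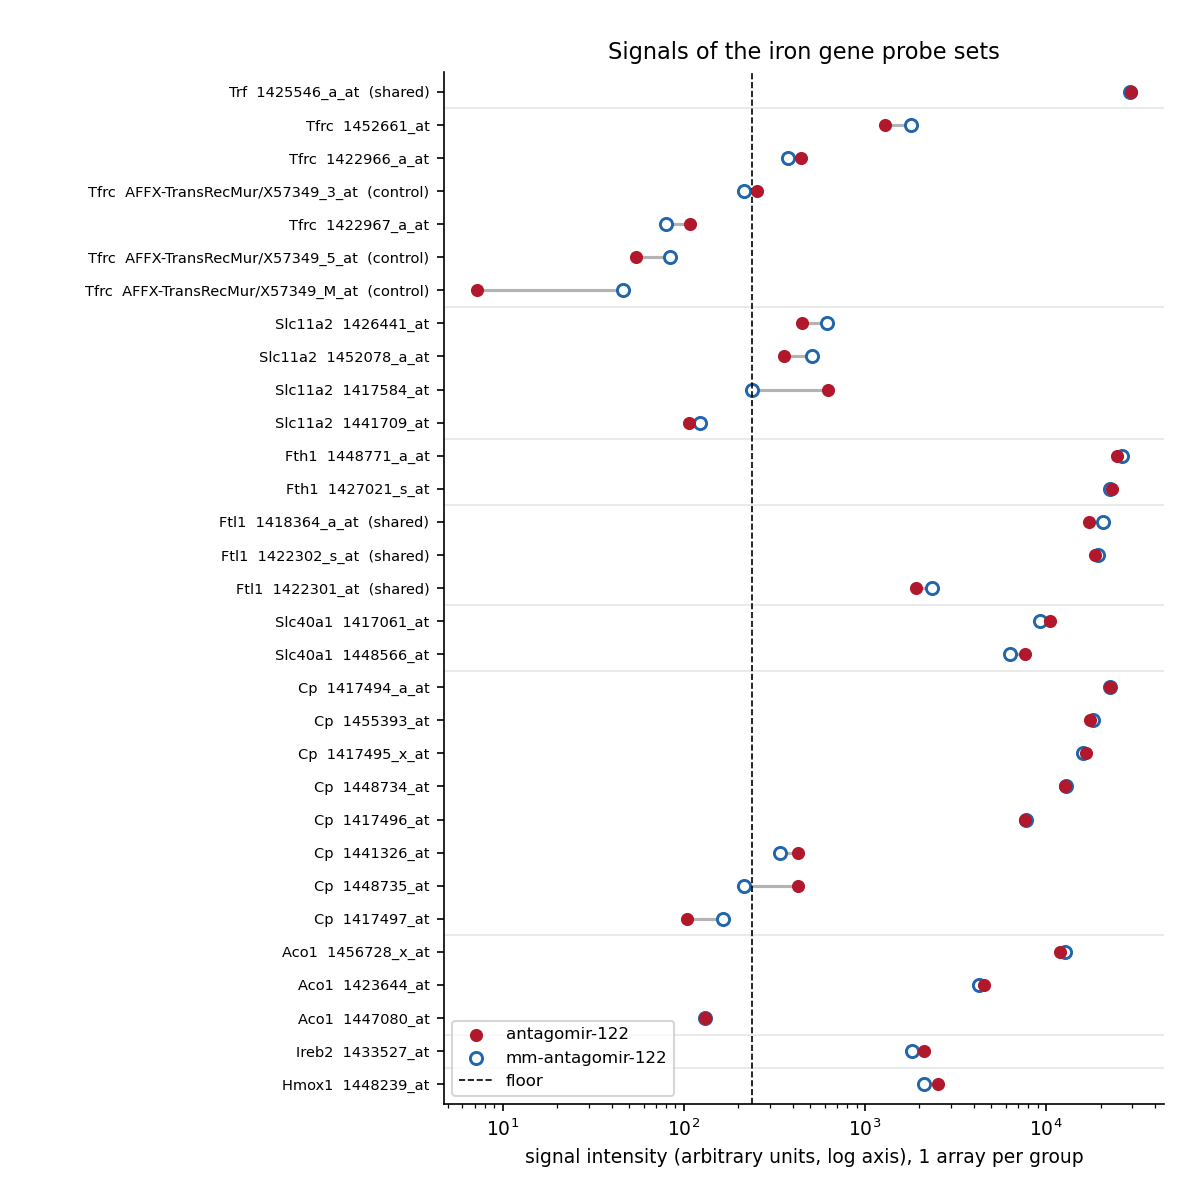
Signal intensity (arbitrary units, log axis) of each of the 31 iron gene probe sets on the antagomir-122 array (filled) and the mm-antagomir-122 array (open), with the floor of 238 as a dashed line. Most pairs of points nearly coincide, and the widest gap above the floor is Slc11a2 probe set 1417584_at, at 628 on the antagomir-122 array and 237 on the mm-antagomir-122 array.

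A scale for these ratios came from 3860 genes with a second measured probe set. Between a gene's brightest probe set and its next brightest, the spread of the ratios was 0.28 on the log2 scale (SD of the difference divided by the square root of 2). It was 0.23 over the 1813 pairs among the brightest tercile of genes and 0.35 over the 588 pairs among the dimmest. This spread includes real differences between transcripts and leaves out the spread between animals. Very bright probe sets differed less between the arrays. Of 178 measured probe sets with both signals at 16000 or more, the log2 ratios had an SD of 0.10 and 0 passed 1.5-fold, whereas 8.25% of the 9604 whose dimmer signal lay between the floor and 1000 did. The 18 probe sets for spiked hybridization controls had a median log2 ratio of -0.27, so scaling on them would add 0.27 to every ratio here. The 3′ to 5′ signal ratios of the control transcripts were 0.795 for Gapdh and 1.24 for beta-actin on the antagomir-122 array, against 0.754 for Gapdh and 1.22 for beta-actin on the mm-antagomir-122 array.

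The transferrin message had nearly equal signals in the pools, and the readings of its receptor were split. The only Trf probe set, shared with Srprb, had signals of 29571 in the antagomir-122 pool and 28975 in the control pool, a log2 ratio of 0.03 as deposited and -0.03 with median centring. Both signals lay in the range where ratios were narrow, and how much of the signal comes from Srprb cannot be told. Tfrc had signals of 1288 in the antagomir-122 pool and 1807 in the control pool on its brightest probe set, 1452661_at. Its log2 ratio was -0.49, the largest distance from 0 among the 8 genes, and 4.75% of all measured genes had a ratio as low. At a threshold of 1.4-fold Tfrc was the 1 iron gene on the lower side, where 4.85% of all measured genes were. Its distance from 0 was 2.13 times the probe set spread of the brightest tercile of genes, many of them brighter than Tfrc. Among all measured probe sets whose dimmer signal lay between 1000 and 4000, as here, the log2 ratios had an SD of 0.28.

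The other readings of Tfrc went both ways. Probe set 1422966_a_at had 442 in the antagomir-122 pool and 378 in the control pool, a log2 ratio of 0.23, so the measured probe sets of Tfrc disagreed in sign and their mean was -0.13. Probe set 1422967_a_at lay under the floor, at 108 in the antagomir-122 pool and 79.4 in the control pool. The Affymetrix control probe sets read the 3′ end, the middle and the 5′ end of the Tfrc message. At the 3′ end the signals were 254 in the antagomir-122 pool and 215 in the control pool. In the middle they were 7.2 in the antagomir-122 pool and 46.3 in the control pool, and at the 5′ end 54.7 in the antagomir-122 pool and 83.6 in the control pool. All 3 had means under the floor, so their order carries no direction.

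Dividing and erythroid cells are known for high Tfrc, and their markers were read beside it. Of 7 measured markers of dividing cells out of 8 listed, 6 had ratios above 0, with a median log2 ratio of 0.21 and summed signals of 6729 in the antagomir-122 pool and 6337 in the control pool. Without suffixed probe sets 3 of 6 lay above 0, with a median of 0.09, and with the mean over probe sets the median was 0.08. Mki67 and Cdk1 each had a log2 ratio of 0.33. Ccna2 and Rrm2 had 0.21 and 0.22, but -0.06 and as low as -0.29 on other probe sets. Of 12 erythroid markers 3 were measured, with summed signals of 2261 in the antagomir-122 pool and 2347 in the control pool. Among them Klf1, an erythroid transcription factor, had a log2 ratio of 0.31, Alas2 had 0.08 and Car2 had -0.34. Their part in the Tfrc signals was not tested. In liver RNA, fewer cells of a type and less RNA per cell cannot be told apart.

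Slc11a2 gave the most divided readings of the 10 genes. Its brightest probe set, 1426441_at, had 448 in the antagomir-122 pool and 622 in the control pool, a log2 ratio of -0.47. Probe set 1452078_a_at had 358 in the antagomir-122 pool and 512 in the control pool, a log2 ratio of -0.52. Both were thus lower in the antagomir-122 pool by a similar ratio, and the annotation gives both the same source accession, so they are not independent readings. Probe set 1417584_at went the other way, with 628 in the antagomir-122 pool and 237 in the control pool. Its control signal was just under the floor, and against the floor the signal was at least 2.64-fold higher. Of all measured probe sets, 0.218% had a ratio as high. The fourth, 1441709_at, lay under the floor at 107 in the antagomir-122 pool and 123 in the control pool.

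The mean log2 ratio over the 3 measured Slc11a2 probe sets was 0.14, on the other side of 0 from the brightest. DMT1 is known to be made from transcripts that end with or without an iron-responsive element. The annotation used here does not say which form each probe set reads, so the probe sets are given side by side and no direction is given to the gene.

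**Figure D2:**
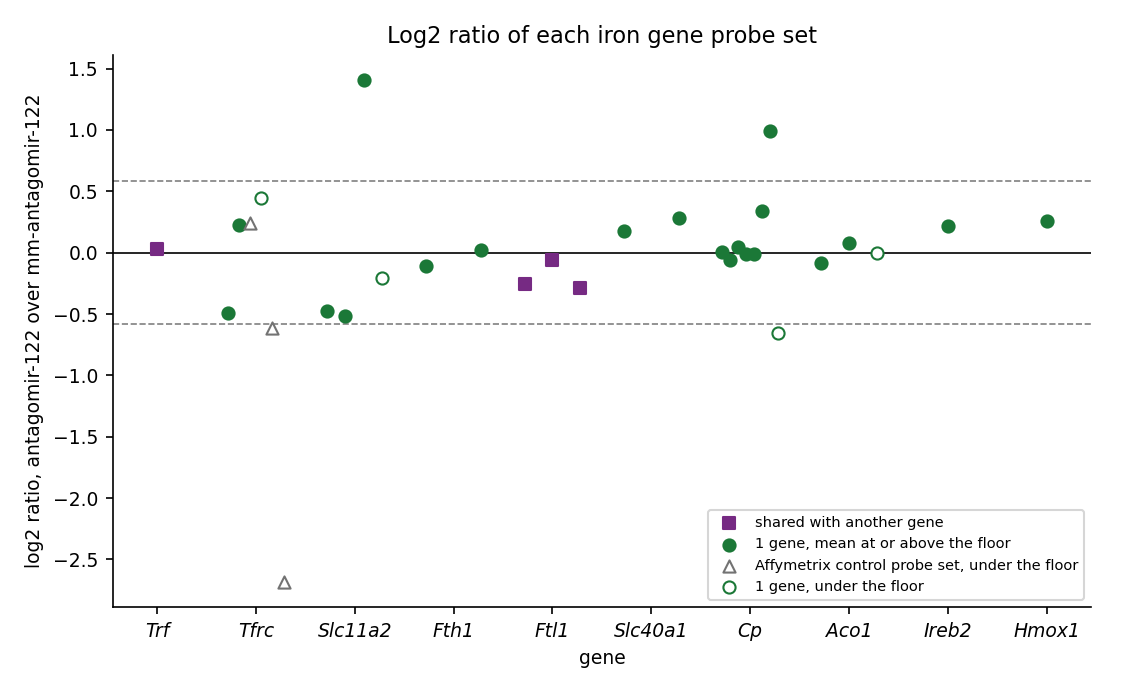
Log2 ratio of antagomir-122 over mm-antagomir-122 signal (vertical axis) for each probe set of the 10 genes, filled where the mean signal reached the floor, with dashed lines at 1.5-fold. Probe sets of Tfrc, Slc11a2 and Cp spread widely, while those of Fth1, Aco1 and Slc40a1 lie close together, and the 2 filled points past 1.5-fold are 1 of Slc11a2 and 1 of Cp.

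The ferritin subunit messages stayed within 1.5-fold, and 4 of their 5 probe sets lay in the bright range where ratios were narrow. Fth1, the subunit that oxidises iron for storage, had 24582 in the antagomir-122 pool and 26450 in the control pool on probe set 1448771_a_at, a log2 ratio of -0.11. On 1427021_s_at it had 23093 in the antagomir-122 pool and 22703 in the control pool, a log2 ratio of 0.02. The 2 Fth1 readings lay on opposite sides of 0. Both lay within the probe set spread of the brightest tercile of genes, and the ratios of probe sets as bright had an SD of 0.10. Both probe sets carry suffixes that mark a match to several transcripts.

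Ftl1, the subunit that aids the formation of the iron core, was read by 3 probe sets, each also annotated to the pseudogene Ftl1-ps2. On 1418364_a_at the signals were 17386 in the antagomir-122 pool and 20724 in the control pool, a log2 ratio of -0.25, set beside an SD of 0.10 for the ratios of probe sets as bright. On 1422302_s_at they were 18547 in the antagomir-122 pool and 19332 in the control pool, a log2 ratio of -0.06. On 1422301_at, which is also annotated to copies of the microRNA gene Mir692, they were 1926 in the antagomir-122 pool and 2348 in the control pool, a log2 ratio of -0.29. All 3 had a lower signal in the antagomir-122 pool as deposited and with median centring and quantile normalization. With loess correction 1422302_s_at had 0.03, and scaled on the hybridization controls 1422301_at alone stayed below 0, at -0.01. Gene and pseudogene cannot be told apart in these signals.

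Slc40a1, which encodes ferroportin, the iron exporter of hepatocytes and Kupffer cells, had a slightly higher signal on both of its probe sets. On 1417061_at it had 10470 in the antagomir-122 pool and 9276 in the control pool, a log2 ratio of 0.17. On 1448566_at it had 7639 in the antagomir-122 pool and 6296 in the control pool, a log2 ratio of 0.28. It was the only gene with several measured probe sets of 1 gene on which none went the other way. Its ratio lay between 0.12 and 0.45 under the 10 other processing settings tried. At 0.76 times the probe set spread of the brightest tercile of genes it was a small difference, and 29.0% of all measured genes had a ratio as high.

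Hmox1 was read by 1 probe set, 1448239_at, at 2532 in the antagomir-122 pool and 2117 in the control pool. It was 1.20-fold higher (log2 0.26), the highest of the 8 genes, and 21.0% of all measured genes had a ratio as high. Slc40a1 and Hmox1 are both known to be expressed in Kupffer cells, whose markers had higher signals in this pool. All 13 measured markers of Kupffer cells and macrophages, of 14 listed, had ratios above 0, with a median log2 ratio of 0.41. Of all 10003 measured genes 5034 had ratios above 0. Their summed signals were 74714 in the antagomir-122 pool and 56521 in the control pool. The macrophage receptor gene Adgre1 and the complement gene C1qc had log2 ratios of 0.60 and 0.69, and Clec4f and Timd4, markers of resident Kupffer cells, had 0.24 and 0.20. Other leukocyte markers had higher signals too. Of 7 measured neutrophil markers out of 10 listed, 6 had ratios above 0, with a median log2 ratio of 1.28 and 5 past 1.5-fold. Of all measured genes 5.12% passed 1.5-fold on the higher side. Mpo and Ltf had control signals under the floor, and against the floor they were at least 1.68-fold and 1.54-fold higher. With dim signals raised to the floor the median of the neutrophil markers was 0.75. Their summed signals were 8334 in the antagomir-122 pool and 2716 in the control pool. Among them S100a8, a calprotectin subunit gene, had 3442 in the antagomir-122 pool and 739 in the control pool. All 6 measured lymphocyte markers of 12 listed had ratios above 0, with a median of 0.59 and 3 past 1.5-fold. Their summed signals were 6526 in the antagomir-122 pool and 3964 in the control pool. With median centring, quantile normalization or loess correction 5 of the 6 lay above 0. With quantile normalization, loess correction or the mean over probe sets 2 passed 1.5-fold. Ighm had a log2 ratio of 1.09 on its brightest probe set, but 0.08 to 0.42 on its others. The part of these cells in the Slc40a1 and Hmox1 signals was not tested. The hepatocyte markers had a median log2 ratio of -0.02 over 13 measured genes of 14 listed. Past 1.5-fold was 1 of them, Ass1, on the lower side. Its dim probe set had 245 in the antagomir-122 pool and 531 in the control pool, a log2 ratio of -1.12. Alb, the albumin gene, had signals of 26554 in the antagomir-122 pool and 26970 in the control pool. Alb and many other markers of this list lay in the bright range where ratios were narrow.

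Cp, the copper oxidase of plasma and an acute phase protein, was read by 8 probe sets of 1 gene, 7 of them measured. The 5 brightest had nearly equal signals in the pools. On 1417494_a_at Cp had 22677 in the antagomir-122 pool and 22560 in the control pool, and on 1448734_at it had 12776 in the antagomir-122 pool and 12870 in the control pool. The log2 ratios of these 5 ran from -0.06 on 1455393_at to 0.05 on 1417495_x_at. The dim probe sets of Cp departed from them. Probe set 1448735_at had 428 in the antagomir-122 pool and 216 in the control pool, at least 1.80-fold higher against the floor. Probe set 1441326_at had 427 in the antagomir-122 pool and 338 in the control pool, a log2 ratio of 0.34. Under the floor, 1417497_at had 104 in the antagomir-122 pool and 164 in the control pool. The bright probe sets of Cp differed from one another by less than the probe set spread, whereas the 2 measured dim ones both lay further above 0.

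Other acute phase genes lay on both sides of 0. Of 20 measured, 10 had ratios above 0 and 10 below, the median log2 ratio was 0.00, and 1 passed 1.5-fold. Many of them, such as Saa1, Fgb and Hp, had both signals in the bright range where ratios were narrow. A median near 0 therefore says little about these genes. That gene, Orm2, which encodes an orosomucoid, was 1.59-fold lower, at 10728 in the antagomir-122 pool and 17090 in the control pool. Scaled on the hybridization controls Orm2 had a log2 ratio of -0.40, within 1.5-fold. Apcs, the amyloid P component, had a log2 ratio of -0.39, and the ferrireductase gene Steap4 had 0.48.

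The iron sensors had small ratios. Aco1, the cytosolic aconitase that becomes IRP1 when it loses its iron-sulfur cluster, had 11952 in the antagomir-122 pool and 12692 in the control pool on 1456728_x_at, a log2 ratio of -0.09. On 1423644_at it had 4535 in the antagomir-122 pool and 4292 in the control pool, a log2 ratio of 0.08, and on 1447080_at, under the floor, 131 in each pool. Ireb2, the gene of IRP2, had 2112 in the antagomir-122 pool and 1818 in the control pool on its 1 probe set, a log2 ratio of 0.22. Neither gene was further from 0 than the probe set spread of the brightest tercile of genes. Fbxl5, the ubiquitin ligase adaptor that removes IRP2 when iron is plentiful, had a log2 ratio of 0.09.

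**Figure D3:**
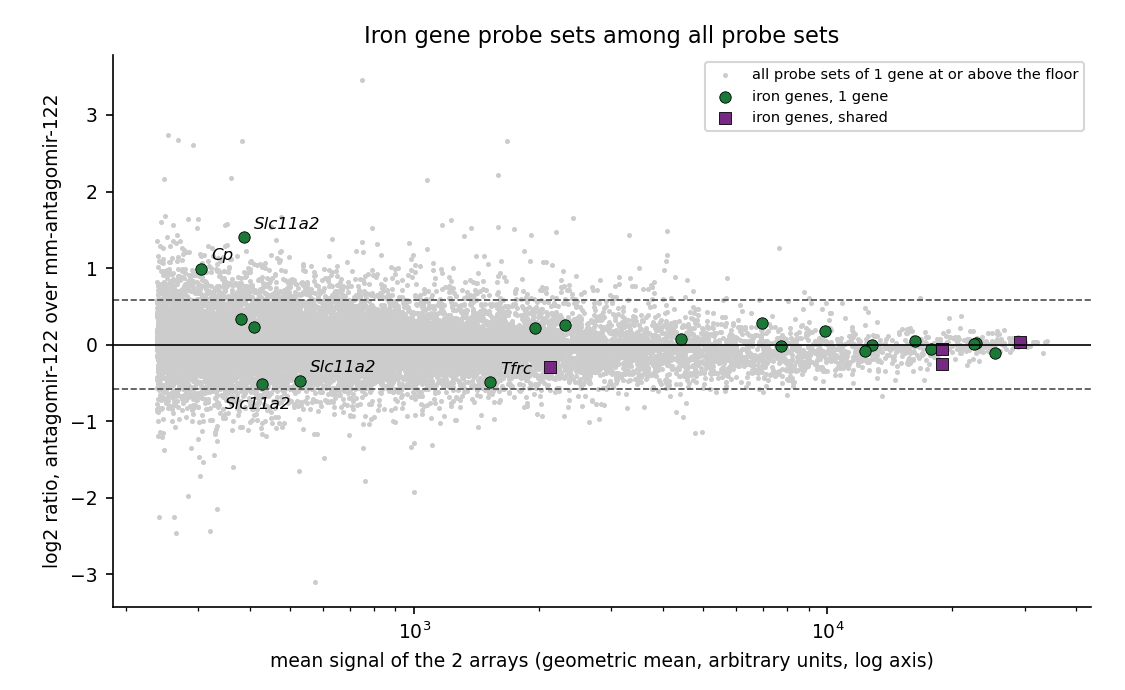
Log2 ratio of antagomir-122 over mm-antagomir-122 signal against the geometric mean signal of both arrays (log axis) for all 16023 measured probe sets (grey) and the measured iron gene probe sets (coloured). Grey points narrow toward the bright end, the iron probe sets lie inside that cloud, and only 1 Slc11a2 and 1 Cp probe set pass the dashed 1.5-fold lines.

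Other genes that move iron across membranes were measured with lists chosen with earlier results of these arrays known. Of 8 measured genes of uptake and endosomal reduction, 0 were 1.5-fold higher or lower, 4 had ratios above 0 and 4 below, and the median log2 ratio was 0.01. Steap3, the ferrireductase of the transferrin cycle, had 267 in the antagomir-122 pool and 385 in the control pool, a log2 ratio of -0.53, and its other probe sets had -0.27 and -0.22. With quantile normalization and with loess correction 1 gene of this list passed 1.5-fold on the lower side. Steap4 had a log2 ratio of 0.48, or 0.76 scaled on the hybridization controls, but 0.01 on its other probe set. With the floor at the 40th percentile 10 genes of the list were measured and Steap4 kept 0.48. Among these 10, 1 gene passed on the higher side, a dim gene that the main floor leaves out. Tfr2, the second transferrin receptor of hepatocytes, had -0.29 and -0.06.

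Of 7 measured genes for ferritin turnover, iron chaperones and IRP2 control, 0 passed 1.5-fold and the median log2 ratio was -0.11. Ncoa4, the receptor that takes ferritin to the lysosome, had a log2 ratio of 0.05, and Pcbp1, which hands iron to ferritin, had -0.34. Of 12 genes of the hepcidin axis, which sets how much ferroportin stays on the cell surface, 1 passed 1.5-fold on each side. Of all measured genes 5.12% did so on the higher side and 2.62% on the lower side. Hfe and Neo1 had log2 ratios of -0.07 and 0.11 on their brightest probe sets. On their other probe sets they had 0.73 and 0.88, past 1.5-fold. The hepcidin genes Hamp and Hamp2 had log2 ratios of 0.05 and 0.17, in the range of signals where ratios were narrow. Hjv, the hemojuvelin gene, was 2.79-fold higher, at 6843 in the antagomir-122 pool and 2448 in the control pool. It is also in the list of reported miR-122 targets given above, so this is the same reading. Smad7, a feedback inhibitor of BMP signalling, was 1.74-fold lower, at 798 in the antagomir-122 pool and 1392 in the control pool, and Id1 and Smad6, also BMP targets, had log2 ratios of -0.54 and -0.49. Scaled on the hybridization controls Smad7 had -0.53, and 0 genes of this axis passed on the lower side.

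Haem genes stayed within 1.5-fold on their brightest probe sets as deposited. Of 11 measured genes of haem breakdown, scavenging and transport, 0 passed it in either direction and the median log2 ratio was -0.09. Hmox2, the constitutive haem oxygenase, had a log2 ratio of 0.01, and Blvrb, a biliverdin reductase, had -0.41. Of 8 measured genes of haem synthesis, 0 passed 1.5-fold and the median was -0.13. Alas1, the first enzyme of the pathway in liver, had 23957 in the antagomir-122 pool and 18458 in the control pool. These signals lay in the bright range where ratios were narrow. The log2 ratios of Alas1 were 0.38 and 0.39 on its probe sets. Scaled on the hybridization controls Alas1 had 0.65, past 1.5-fold. Cpox and Urod, enzymes further along the pathway, had -0.48 and -0.30. Alad, the enzyme after Alas1, had -0.07 on its brightest probe set and 0.79 on its other. Fech had -0.20 on its brightest probe set and as low as -0.60 on its others. Without suffixed probe sets 1 gene of haem synthesis passed 1.5-fold on the higher side.

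Genes of mitochondrial iron and iron-sulfur cluster assembly were mostly on the lower side as deposited. Of 15 measured, 13 had ratios below 0, where 4965 of all 10003 measured genes did, and the median log2 ratio was -0.14. Past 1.5-fold there was 1 gene on the lower side and 0 on the higher side. Scaled on the hybridization controls 4 of the 15 lay below 0 and 0 passed 1.5-fold on the lower side. Lyrm4, a partner of the cysteine desulfurase Nfs1, was 1.70-fold lower, at 379 in the antagomir-122 pool and 644 in the control pool, a log2 ratio of -0.76, or -0.49 scaled on the hybridization controls. It was not measured with the floor at the 80th percentile, where 0 of 14 genes passed on the lower side. Isca2, Nfu1 and Nubp1, which act in cluster assembly, had log2 ratios of -0.43, -0.41 and -0.41, and the other Nubp1 probe sets had -0.91 and -0.44.

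Genes that share regulators with Hmox1 and the ferritins, or with Tfrc, were also read. Of 11 measured targets and regulators of NRF2 and BACH1, which act on Hmox1 and the ferritin genes, 0 passed 1.5-fold, 4 had ratios above 0, and the median log2 ratio was -0.02. Gclc, Txnrd1 and Srxn1, antioxidant genes of this group, had -0.33, -0.31 and -0.23. On other probe sets Gclc had -0.10, and Txnrd1 and Srxn1 had as low as -0.84 and -0.68, past 1.5-fold. Gsr had 0.17, and -0.10 on its other probe set. With the mean over probe sets the median of this list was -0.15, with 8 of 11 genes below 0 and 0 past 1.5-fold. Of 10 measured genes of the hypoxia response, which is known to act on Tfrc, Cp and Hmox1, 0 passed 1.5-fold. Of the 10, 3 had ratios above 0 and the median was -0.11. Of all 10003 measured genes 5034 had ratios above 0. With median centring and with the mean over probe sets 1 hypoxia gene passed on the lower side. With the floor at the 40th percentile 1 passed on the higher side. Vegfa had a log2 ratio of -0.56, and -0.84 on its other probe set. Slc2a1, a glucose transporter, had 0.24, and 0.33 and 0.39 on its other probe sets.

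**Figure D4:**
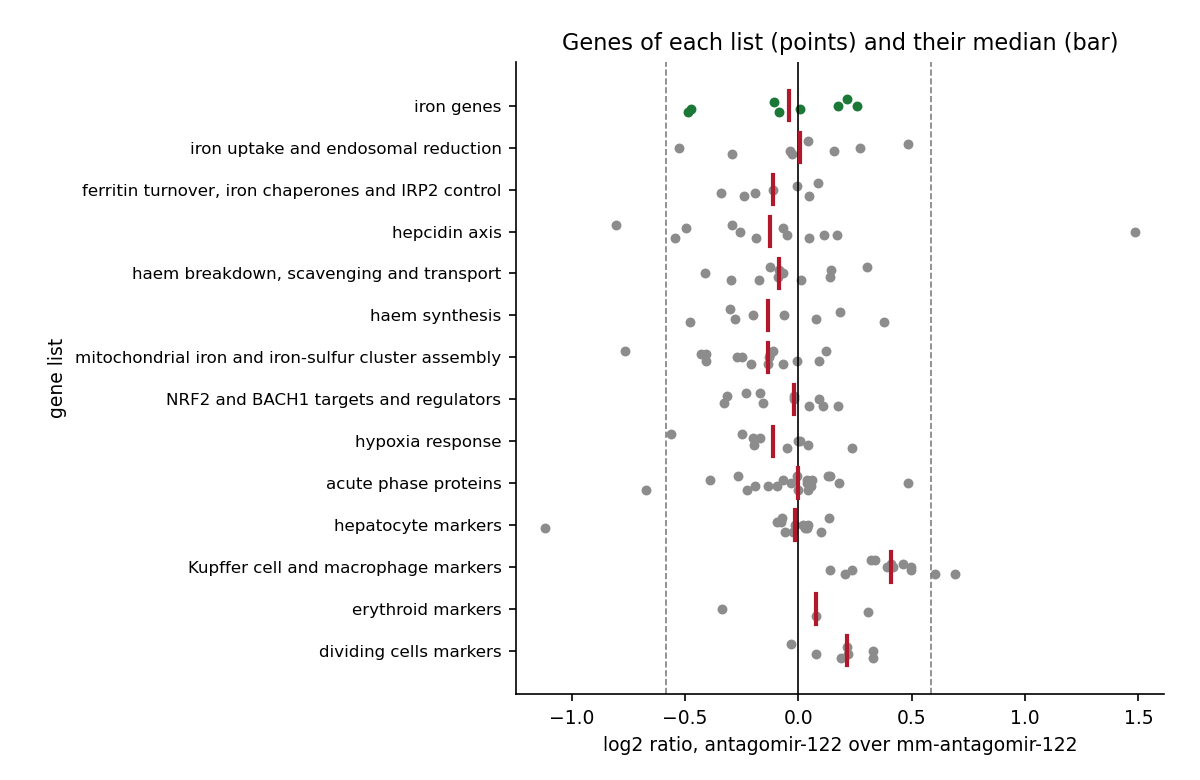
Log2 ratio of antagomir-122 over mm-antagomir-122 signal for the measured genes of each list (points, brightest probe set of each gene) with the list's median (red bar) and dashed lines at 1.5-fold. The iron genes lie on both sides of 0 inside the dashed lines, Hjv stands alone at the right of the hepcidin axis, and all 13 Kupffer cell and macrophage markers lie right of 0.

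**Figure D5:**
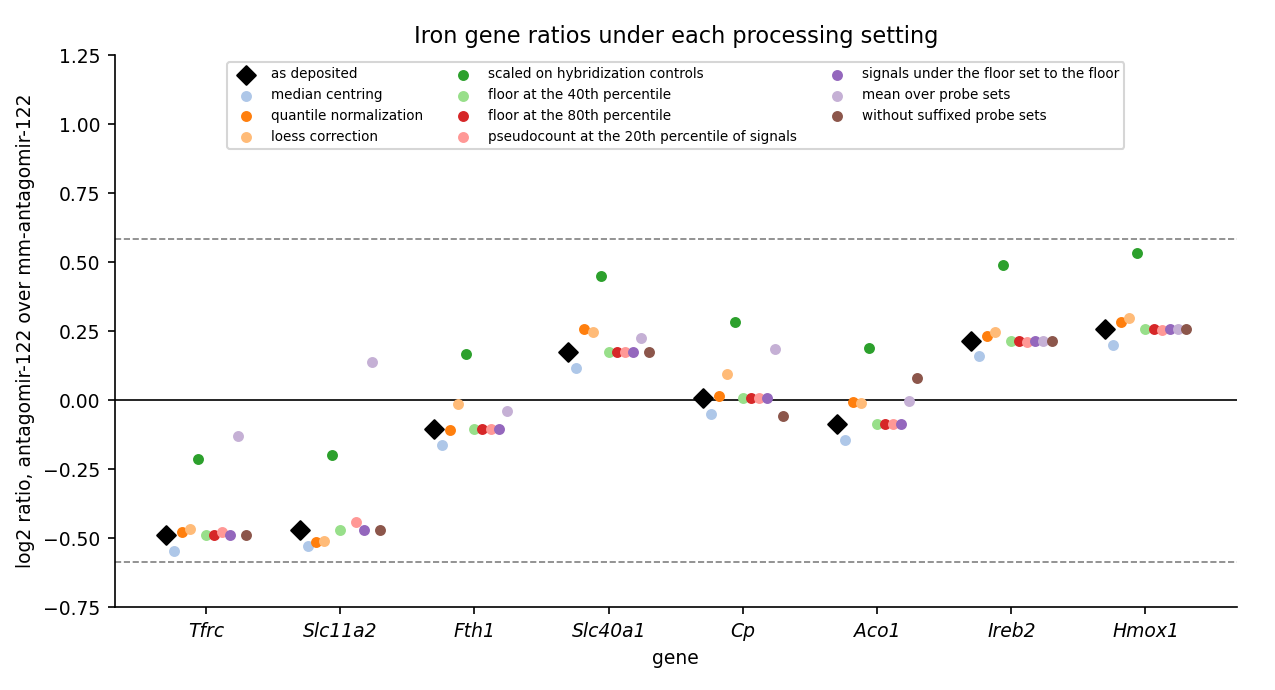
Log2 ratio of each of the 8 measured iron genes under the values as deposited (black diamond) and 10 other processing settings (coloured points), with dashed lines at 1.5-fold. Slc40a1, Ireb2 and Hmox1 lie above 0 and Tfrc below 0 under each, Slc11a2, Fth1, Cp and Aco1 have points on both sides, and no point reaches 1.5-fold.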

How the data were processed

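Liver RNA pooled from 3 mice per group was hybridised to single-colour Affymetrix arrays, 1 per group. The authors deposited a linear intensity for each probe set, and per the submitters' processing notes the tool was MAS5, with no version. The 2% trimmed mean was 500.0 on both arrays. Detection calls were not used here, so a dim signal cannot be told from background. Array number limits the precision.

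Gene names came from the platform annotation, looked up by gene identifier in RefSeq's GRCm38.p6 table, which held 34754 of 34958 single-gene entries. Of 45101 probe sets, 34945 outside the Affymetrix controls carried 1 gene, 932 several and 9160 none named here. Ratios are log2 of the signals as deposited. For a measured probe set with 1 signal below the floor, a fold against the floor is given as a lower bound. All probe sets of the 10 genes are named. From the other lists, up to 4 genes with the largest change and every gene past 1.5-fold were eligible, with others named for their role after their values were seen. Members, lists and rules were chosen with earlier results of these data known, and the lists were written from general knowledge. The calculation was tested on simulated data. Python 3.11.15, numpy 2.4.6, pandas 2.3.3 and statsmodels 0.14.6 were used.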

Additional observations from a re-analysis of the deposited data

How the results depend on the processing

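The counts of iron genes at least 1.5-fold higher and lower were 0 and 0 as deposited. They stayed so with median centring, quantile normalization, loess correction (span 0.3), scaling on the hybridization controls, a pseudocount of 37.8, a floor at the 40th or the 80th percentile, dim signals raised to the floor, the mean over probe sets and no suffixed probe sets. With a threshold of 1.4-fold 1 gene, Tfrc, was lower, where 4.85% of all measured genes were. For single probe sets, alternatives added after seeing the data gave 1 lower with the floor at the 40th percentile, 0 higher with the floor at the 80th percentile, 2 lower at 1.4-fold and 1 higher at 2-fold. Scaled on the hybridization controls 3 were higher, against 2 as deposited. By construction a floor at the 80th percentile removes the 2 probe sets of Slc11a2 and Cp that were past 1.5-fold. It leaves no measured probe set of Slc11a2, and without suffixed probe sets Fth1 is not measured. In each of these settings the gene counts rest on the other genes. Of 78 values of the 8 genes under these alternatives, 76 stayed within 0.28, the probe set spread over all genes, of the deposited value. Many of them could not leave that range. A changed floor, or dim signals raised to the floor, leaves the ratio of a gene that is still measured as it was. The shift from the hybridization controls is the same for each gene and just inside 0.28. The count of 76 is therefore no measure of how steady the ratios are. Scaling on the hybridization controls added 0.27 to each gene, which is more than the spread of 0.23 in the brightest tercile, where 7 of the 8 genes lie. The mean over probe sets moved Tfrc to -0.13 and Slc11a2 to 0.14. No paired analysis was possible because each group has 1 array. The precision of the dim probe sets is limited by their signal over background, and that of the brightest by the narrow range of ratios there.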
